A study of Mus musculus with 24 samples.

Results

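The 10 genes described here encode transcription factors that set the lineages of the lung epithelium: Nkx2-1, Foxa1, Foxa2, Sox2, Sox9, Gata6, Cebpa, Elf3, Elf5 and Trp63. They were chosen by symbol, and each was read from whichever of its transcripts had the most reads on average in the 12 epithelial libraries. All 10 had a row and passed the filter on low counts, out of 14557 gene symbols in the epithelial columns and 13759 genes tested. The libraries come from lung organoids, in which EpCAM-positive lung epithelial cells of female wild-type C57BL6 mice were grown in Matrigel with lung fibroblasts of the line CCL206, derived from a ddY mouse of male sex. Each well of a 6-well plate was seeded with 200000 cells of each kind. The control group received no fibers, and the exposed groups received 12000 or 30000 nylon 6,6 fibers of 12 by 31 micrometers per well, for 7 days. Beads that bind EpCAM, an adhesion molecule of epithelium, then pulled out the fraction studied here. Each group had 4 libraries, with mouse 1 to mouse 4 in every group, from 4 independent isolations, and the sources used here do not give the age of the mice. The fibroblasts of all groups were of 1 line.

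Nkx2-1 is the homeobox factor that marks the whole lung epithelium, and the forkhead factors Foxa1 and Foxa2 open chromatin along the same tree. In the developing lung Sox2 is held in the proximal tubes that become airway and Sox9 in the distal tips that become alveoli, and in the adult airway p63, the product of Trp63, keeps the basal stem cells. Gata6 and Cebpa act in distal differentiation and alveolar type 2 cells, while Elf3 and Elf5 are ETS factors of differentiating airway epithelium and of the embryonic distal tips.

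Total counts over all transcripts were 21222034 to 28232472 per control library, 20103389 to 31119155 at 12000 fibers and 6767842 to 9234052 at 30000 fibers, so genes of low level rested on the fewest reads at the higher dose. All 4 libraries with 30000 fibers also stood apart in other ways. Mitochondrial transcripts took 15.6% ± 0.885 (SD, n = 4) of their counts, against 6.44% ± 1.118 in controls and 6.08% ± 0.725 at 12000 fibers. An index of 3′ weighting was the median, over 4374 genes, of the log2 ratio of counts between the transcript ending closest to the gene's 3′ end and the one ending farthest from it (at least 1000 bases apart), relative to the control mean. It lay between 0.66 and 0.76 at 30000 fibers, between -0.04 and 0.03 in controls and between -0.07 and -0.04 at 12000 fibers. Depth, mitochondrial share, this index and the dose of 30000 fibers cannot be told apart in these libraries. The epithelial fraction held RNA of fibroblast genes in every group: 16 of 20 markers had a row, and their summed level in CPM (counts scaled to a common library total) ran from 8106 to 12570 in the controls, from 14530 to 15970 with 12000 fibers and from 13080 to 16120 with 30000 fibers. Most of that sum was Fn1, at 9131, 13210 and 11210 CPM on average in the same order of groups. All 15 markers that were tested were higher than in controls at both doses, where 18.7% and 32.2% of all genes tested were higher. Between the doses 9 of them were higher at 30000 fibers and 0 lower, with a median log2 change of 0.741. Of all genes, 28.3% were higher and 27.1% lower between the doses. Thy1, Tcf21, Tbx4 and Meox2 of that list were not analysed here. The 16 pan-epithelial markers summed to 7578 to 8790, 7770 to 8735 and 4459 to 5231 CPM in the same order, and Epcam itself fell by 1.44 on the log2 scale at 30000 fibers (edgeR adjusted p = 1.43e-10). Immune markers summed to 145 CPM or less in every library, with Ptprc among 4 of 8 that were not analysed here, and 3 of 7 endothelial and mesothelial markers, chiefly Msln, summed to 389.1 to 1212 CPM. In such bulk samples, fewer cells of a type and less RNA per cell cannot be told apart.

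The question for these genes was how the factors of airway, basal cells and alveoli stood relative to each other with and without fibers. The basal factor and both airway factors fell at both doses, and among the pan-lung factors the paralogs Foxa1 and Foxa2 parted at 12000 fibers. The distal factors took separate courses. In the transcript read, Gata6 was higher at both doses and Sox9 at 30000 fibers. Cebpa was lower at 30000 fibers and did not pass at 12000 fibers. Changes below are log2 fold changes with their SE from edgeR's quasi-likelihood test over all 12 libraries, and a gene passed at a Benjamini-Hochberg adjusted p under 0.05 over all 13759 genes.

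Trp63, the basal cell master regulator, had the largest change of the 10. In control mice 1 to 4 Trp63 was at 170.6, 120.7, 80.0 and 125.2 CPM, at 12000 fibers at 6.10, 4.93, 13.4 and 15.8 CPM, and at 30000 fibers at 0.392, 3.18, 5.00 and 3.68 CPM. No exposed library reached the lowest control library. The log2 change of Trp63 was -3.67 ± 0.36 (adjusted p = 3.39e-05) at 12000 fibers and -5.26 ± 0.53 (adjusted p = 1.05e-05) at 30000 fibers. The Trp63 transcript read here, Trp63-201, lies on chr16:25801916-25892102 (plus strand, mm10, 12 exons), and other transcripts of the gene start upstream, from 25683763. At the higher dose its levels rested on 1, 9, 17 and 11 reads. The difference between the doses, -1.60 ± 0.74, did not pass (adjusted p = 0.095), although it did by DESeq2 (-1.69, adjusted p = 0.00509) and over summed transcripts (-1.58, adjusted p = 0.0301). Of the 15 basal cell markers, 12 were lower at 12000 fibers and 14 at 30000 fibers, where 19.3% and 33.4% of all genes tested were lower. The 15 markers summed to 4609 to 6176 CPM without fibers, to 2405 to 2639 CPM with 12000 and to 1257 to 1502 CPM with 30000. The part of cell numbers in the fall of Trp63 was not tested.

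Sox2, the factor of the proximal airway, was at 95.0, 74.2, 59.4 and 77.1 CPM in control mice 1 to 4, at 11.8, 10.3, 18.7 and 18.5 CPM at 12000 fibers and at 9.01, 8.11, 14.7 and 9.02 CPM at 30000 fibers. Every exposed library was below every control library, and the exposed groups overlapped each other. The log2 change of Sox2 was -2.39 ± 0.20 (adjusted p = 2.38e-06) at 12000 fibers and -2.88 ± 0.25 (adjusted p = 6.7e-07) at 30000 fibers, with a difference between the doses of -0.49 ± 0.30 that did not pass (adjusted p = 0.181) and was 0.07 with pan-epithelial scaling. Sox2 lies on chr3:34650405-34652461 (plus strand, mm10) as a single exon of 2057 bases inside Sox2ot, a noncoding gene on the same strand. Sox2ot itself was low, at 3.47, 0.414 and 0.785 CPM on average in the 3 groups, and its log2 change was -2.99 (adjusted p = 1.85e-05) at 12000 and -2.01 (adjusted p = 0.00164) at 30000 fibers. Whether reads of Sox2 were also counted for Sox2ot was not tested.

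Elf3, an ETS factor of differentiating airway epithelium, was at 221.2, 147.5, 175.1 and 201.9 CPM in controls, at 51.7, 54.6, 59.5 and 65.4 CPM at 12000 fibers and at 33.7, 26.8, 36.8 and 36.4 CPM at 30000 fibers. The 3 groups did not overlap. Elf3 (chr1:135253575-135258568, minus strand, 9 exons) changed by -1.69 ± 0.12 on the log2 scale at 12000 fibers (adjusted p = 8.79e-08) and by -2.47 ± 0.14 at 30000 fibers (adjusted p = 5.38e-10). Elf3 was also lower at 30000 than at 12000 fibers (-0.78 ± 0.15, adjusted p = 0.000321), which Sox2 and Trp63 were not by this test. With libraries scaled to equal pan-epithelial markers, that difference was -0.21 and no longer passed (adjusted p = 0.179). Gm26642, an antisense gene annotated across all 4994 bases of Elf3, was not analysed here, and its reads cannot be told apart from those of Elf3 if strand was not used.

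Promoter windows are shown for the airway factors Sox2 and Elf3, which were lower at both doses, and for the paralogs Foxa1 and Foxa2, which parted at 12000 fibers. The bases are given 5′ to 3′ on the gene's strand from RefSeq (GRCm38.p6), in windows that end upstream of both the RefSeq start and the start of the transcript read, and capitals mark motif matches. Both strands were searched for the forkhead motif GTAAACA, the NKX2-1 motif CAAGTG, the SOX motif ACAAAG and the C/EBP motif TTGCGCAA. Promoters of 7 of the 10 genes were found in the table, and Sox9, Gata6 and Trp63 were not among them. Sox2 (chr3:34649745-34649994, plus strand) had 1 SOX match and Elf3 (chr1:135258569-135258722, minus strand) 1 NKX2-1 match. The Foxa1 window is chr12:57546122-57546361 and the Foxa2 window chr2:148046970-148047219, both on the minus strand.
Sox2: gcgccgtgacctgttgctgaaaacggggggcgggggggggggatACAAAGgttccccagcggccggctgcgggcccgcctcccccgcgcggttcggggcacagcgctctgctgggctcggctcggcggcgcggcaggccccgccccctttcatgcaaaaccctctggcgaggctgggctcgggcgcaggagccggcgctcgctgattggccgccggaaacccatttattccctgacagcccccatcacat
Elf3: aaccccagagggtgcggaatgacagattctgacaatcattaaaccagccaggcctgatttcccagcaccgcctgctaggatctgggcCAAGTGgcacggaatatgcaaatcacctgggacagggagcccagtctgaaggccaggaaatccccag
Foxa1: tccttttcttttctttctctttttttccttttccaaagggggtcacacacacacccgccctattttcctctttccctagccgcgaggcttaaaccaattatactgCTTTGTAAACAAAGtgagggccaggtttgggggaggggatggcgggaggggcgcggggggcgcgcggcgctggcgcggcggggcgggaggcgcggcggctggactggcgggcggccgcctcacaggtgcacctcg
Foxa2: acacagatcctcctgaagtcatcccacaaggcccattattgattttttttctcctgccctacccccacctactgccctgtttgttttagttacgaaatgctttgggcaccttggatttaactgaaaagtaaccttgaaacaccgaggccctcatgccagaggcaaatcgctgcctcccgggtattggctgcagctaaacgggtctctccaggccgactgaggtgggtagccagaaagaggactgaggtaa
The Foxa1 window held a forkhead match that overlaps 2 SOX matches, 1 on each strand, while the windows of Foxa2, Nkx2-1 and Cebpa held none of the 4 motifs. The Elf5 window held none either, but it lies far upstream of the start of the Elf5 transcript read here and downstream of the start of 2 others. A match is common for some of these motifs. Of 32851 promoters, 16.5% held the SOX motif in 250 bases, 7.82% the NKX2-1 motif in 154 bases and 3.06% the forkhead motif in 240 bases.

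Foxa1 (chr12:57540628-57546121, minus strand, 2 exons) and Foxa2 (chr2:148042877-148046969, minus strand, 3 exons), the paired forkhead factors, moved apart at 12000 fibers. Foxa1 was at 218.7, 164.9, 144.4 and 177.9 CPM in controls, at 82.2, 86.1, 86.5 and 95.9 CPM at 12000 fibers and at 84.2, 70.6, 108.6 and 109.6 CPM at 30000 fibers. Foxa2 was at 51.4, 63.3, 55.6 and 59.3 CPM in controls, at 75.7, 86.3, 70.3 and 74.9 CPM at 12000 fibers and at 67.8, 50.8, 66.8 and 72.8 CPM at 30000 fibers. Every 12000-fiber library was below the controls for Foxa1 and above them for Foxa2. Foxa1 changed by -1.01 ± 0.14 (adjusted p = 8.88e-05) and Foxa2 by 0.42 ± 0.09 (adjusted p = 0.00111) on the log2 scale at that dose. At 30000 fibers Foxa1 was lower by -0.91 ± 0.15 (adjusted p = 0.000106), whereas Foxa2 overlapped the controls and did not pass (0.17 ± 0.10, adjusted p = 0.145). Between the doses Foxa1 did not pass (0.10 ± 0.15, adjusted p = 0.605) and Foxa2 was lower (-0.25 ± 0.10, adjusted p = 0.0386). That difference of Foxa1 turned to -0.11 with library totals as the only scaling, and it passed as higher with pan-epithelial scaling (0.67, adjusted p = 1.88e-05) and with the fibroblast covariate (0.48, adjusted p = 0.00521), both described below. That Foxa2 call was lost when mouse entered the fit as a block (-0.25, adjusted p = 0.05) and without any of 12000-fiber mice 1, 2 or 4 or 30000-fiber mice 2 or 3. It was also lost with the fibroblast covariate (-0.23, adjusted p = 0.196), and it turned higher with pan-epithelial scaling (0.33, adjusted p = 0.00539). When every gene was read from its next-highest transcript and the libraries were rescaled on those counts, the call was lost too (-0.09, adjusted p = 0.454). That transcript of Foxa2, Foxa2-202, was still lower at the scaling of the main fit (-0.25, adjusted p = 0.0256). Against control at 30000 fibers, Foxa2 passed as higher without 30000-fiber mouse 2 (0.27, adjusted p = 0.0173). It also passed when every gene was read from its next-highest transcript (0.33, adjusted p = 0.00615). Foxa2-202 at the scaling of the main fit did not pass there (0.17, adjusted p = 0.12).

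Nkx2-1, the marker of lung identity, was at 185.8, 218.4, 192.6 and 224.1 CPM in controls, at 170.0, 203.2, 155.8 and 175.1 CPM at 12000 fibers and at 143.0, 104.8, 114.5 and 135.3 CPM at 30000 fibers. The lower dose overlapped the controls, and the higher dose lay below both other groups. Nkx2-1 (chr12:56531958-56536908, minus strand, 3 exons) changed by -0.22 ± 0.09 (adjusted p = 0.0725) at 12000 fibers and by -0.73 ± 0.10 (adjusted p = 5.84e-06) at 30000 fibers, and between the doses by -0.50 ± 0.10 (adjusted p = 0.000399). With pan-epithelial scaling the difference between doses was 0.08 (adjusted p = 0.498). The change at 12000 fibers passed without control mouse 1 (-0.27, adjusted p = 0.0374) or without 12000-fiber mouse 2 (-0.30, adjusted p = 0.0201). Gm26973, on the opposite strand and overlapping Nkx2-1 by 1566 bases, was at 2.93, 2.89 and 0.839 CPM on average. No source used here gives the strand setting of the counting, so reads of the pair cannot be told apart.

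Scaling weighed on the pan-lung factors at 30000 fibers. When libraries were scaled so that their 16 pan-epithelial markers had equal mean log2 levels, which moved the median change of all genes from -0.03 to 0.68, Nkx2-1 was at -0.02 against control (adjusted p = 0.891) and Foxa1 at -0.21 (adjusted p = 0.098), while Foxa2 was higher by 0.87 (adjusted p = 3.3e-08). With the fibroblast covariate, the mean log2 level of the fibroblast markers, Nkx2-1 was at -0.62 (adjusted p = 0.107) and Foxa1 at -0.03 (adjusted p = 0.953) at that dose. Foxa2 at 12000 fibers kept its size with the covariate but did not pass (0.43, adjusted p = 0.118). The covariate took the number of all genes passing from 5231 to 935 at 12000 fibers and from 9026 to 3201 at 30000 fibers. Library totals as the only scaling moved that median to -0.25 and gave Foxa2 -0.05. The falls of Sox2, Elf3, Trp63 and Cebpa and the rises of Sox9 and Gata6 against control at 30000 fibers passed under every scaling tried.

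Gata6, a GATA factor of distal lung epithelium, was higher at both doses in the transcript read. It was at 42.4, 54.9, 52.0 and 56.5 CPM in controls, at 82.3, 90.5, 77.1 and 87.8 CPM at 12000 fibers and at 77.6, 71.3, 81.0 and 72.2 CPM at 30000 fibers. Both exposed groups lay wholly above the controls and overlapped each other. The log2 change of Gata6 was 0.71 ± 0.08 (adjusted p = 1.65e-06) at 12000 fibers and 0.55 ± 0.09 (adjusted p = 2.14e-05) at 30000 fibers, and the difference between doses did not pass (-0.16 ± 0.09, adjusted p = 0.131). That difference passed as lower with library totals as the only scaling (-0.37, adjusted p = 0.00168), over summed transcripts (-0.35, adjusted p = 0.00431) and with the next-highest transcript (-1.96, adjusted p = 1.57e-09), and as higher with pan-epithelial scaling (0.42, adjusted p = 0.00113). Against control at 30000 fibers, Gata6 was lower when every gene was read from its next-highest transcript (-1.27, adjusted p = 2.49e-06), opposite to the transcript read. Other GATA factors, some of them also known from mesenchyme, were higher too: Gata2, Gata3 and Gata4 averaged 1.05 to 1.48 CPM in controls and were higher by 1.06 to 1.30 on the log2 scale with 12000 fibers and by 2.22 to 2.58 with 30000. Fibroblast markers were higher in the same libraries, and with their level as a covariate Gata6 was at 0.24 (adjusted p = 0.486) at 30000 fibers. The part of fibroblast RNA in the rise of Gata6 was not tested in any other way.

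Sox9, the factor of the distal tips, was at 61.1, 65.7, 71.8 and 61.0 CPM in controls, at 71.7, 66.2, 82.0 and 77.6 CPM at 12000 fibers and at 94.4, 103.4, 98.3 and 85.5 CPM at 30000 fibers. The lower dose overlapped the controls, and the higher dose lay above both groups. Sox9 (chr11:112782224-112787760, plus strand, 3 exons) rose by 0.56 ± 0.08 on the log2 scale at 30000 fibers (adjusted p = 7.01e-06) and by 0.36 ± 0.08 between the doses (adjusted p = 0.000983), the latter not passing with library totals as the only scaling (0.15, adjusted p = 0.117) or with the fibroblast covariate (0.19, adjusted p = 0.167). At 12000 fibers the change was 0.20 ± 0.08 and did not pass (adjusted p = 0.0527), though it did with 3 of 4 other scalings or no filter (adjusted p from 0.0248 to 0.0498), with mouse as a block (0.20, adjusted p = 0.0348), without control mouse 3 (0.25, adjusted p = 0.0199) or without 12000-fiber mouse 2 (0.25, adjusted p = 0.0227). With the fibroblast covariate Sox9 was at 0.18 at 30000 fibers (adjusted p = 0.567) and at -0.015 at 12000 fibers.

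Cebpa, a leucine zipper factor of alveolar type 2 cells, was at 74.5, 80.1, 110.7 and 100.2 CPM in controls, at 82.5, 102.2, 62.2 and 71.8 CPM at 12000 fibers and at 31.7, 26.1, 26.2 and 22.1 CPM at 30000 fibers. The lower dose lay across the control range, with 2 mice higher and 2 lower than their own control, and the higher dose lay below every other library. Cebpa (chr7:35119303-35121928, plus strand, 1 exon) changed by -0.19 ± 0.16 (adjusted p = 0.368) at 12000 fibers, by -1.79 ± 0.20 (adjusted p = 6.27e-06) at 30000 fibers and by -1.60 ± 0.20 between the doses (adjusted p = 2.83e-05). Of 14 alveolar type 2 markers tested, 7 were higher and 2 lower at 30000 fibers, with Sftpa1 at 2.84 ± 0.42 (adjusted p = 0.000177) and Cxcl15 at 2.11 ± 0.33 (adjusted p = 0.000244). The lower ones were Abca3, the lipid transporter of lamellar bodies, at -0.50 ± 0.14 (adjusted p = 0.00581) and Sftpd, a surfactant collectin, at -0.34 ± 0.12 (adjusted p = 0.0186). Of all genes tested, 32.2% were higher and 33.4% lower at that dose. With library totals as the only scaling 4 of the markers were higher and 2 lower. With pan-epithelial scaling, where the median change of all genes was 0.68, they were 13 and 0. At 12000 fibers 4 of the markers were higher and 0 lower, against 18.7% and 19.3% of all genes. The list summed to 2976 to 6128 CPM in the controls, to 5944 to 9870 CPM with 12000 fibers and to 6526 to 9374 CPM with 30000 fibers.

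Elf5, an ETS factor of the embryonic distal tips, had the lowest mean CPM of the 10 in each group. Per kilobase the mean of Trp63 was lower at 30000 fibers, with overlapping ranges. Elf5 was at 3.70, 5.25, 6.25 and 5.87 CPM in controls, at 3.14, 4.26, 3.07 and 4.56 CPM at 12000 fibers and at 2.74, 3.18, 2.06 and 3.01 CPM at 30000 fibers, where it rested on 7 to 9 reads per library. The lower dose overlapped the controls and the higher did not. Elf5 (chr2:103424062-103450989, plus strand, 7 exons) changed by -0.50 ± 0.20 (adjusted p = 0.059) at 12000 fibers and by -0.95 ± 0.27 (adjusted p = 0.00476) at 30000 fibers. The first passed without control mouse 1 (-0.63, adjusted p = 0.0158) or 12000-fiber mouse 4 (-0.60, adjusted p = 0.0435), and the second no longer passed with pan-epithelial scaling (-0.245, adjusted p = 0.471). Between the doses Elf5 changed by -0.45 ± 0.29 (adjusted p = 0.194), and over summed transcripts by -0.80 (adjusted p = 0.00735).

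**Figure D1:**
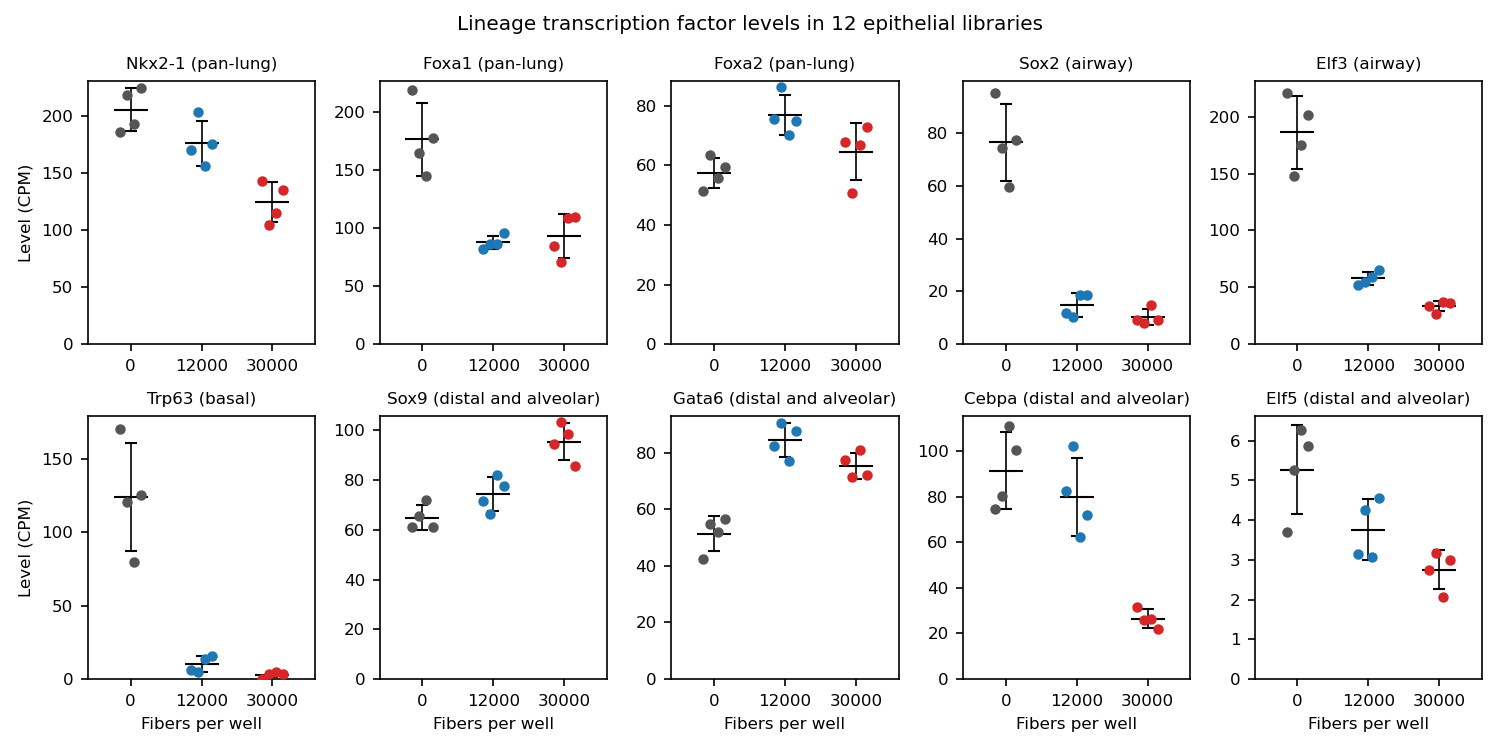
CPM of the 10 factors in the 12 epithelial libraries, by fibers per well, on linear axes from 0, with 1 point per mouse and the mean of 4 mice as a line with its SD as a bar. Trp63, Sox2 and Elf3 fall below their controls at both doses, Gata6 lies above them at both, and Cebpa drops at 30000 fibers only.

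Across the 10 factors, 6 passed at 12000 fibers, 4 lower and 2 higher, where 38% of all genes tested passed, 19.3% lower and 18.7% higher. At 30000 fibers 9 factors passed, 7 lower and 2 higher, against 65.6% of all genes, 33.4% lower and 32.2% higher. Between the doses 5 factors passed, 4 lower and 1 higher, against 55.4% of all genes, 27.1% lower and 28.3% higher. With pan-epithelial scaling the split was 4 lower and 3 higher at 30000 fibers and 1 lower and 4 higher between the doses, and that of all genes was 1143 lower and 9439 higher at 30000 fibers. In a fit without the 30000-fiber libraries, again 4 were lower and 2 higher at 12000 fibers. The counts of 6, 9 and 5 are thus to be read against a large share of genes that passed. The median log2 change of the 10 was -0.36, -0.93 and -0.47 in the 3 comparisons, while that of all genes was -0.003, -0.026 and -0.012. Both exposed groups were compared with the same 4 control libraries, so their changes are not independent of each other.

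**Figure D2:**
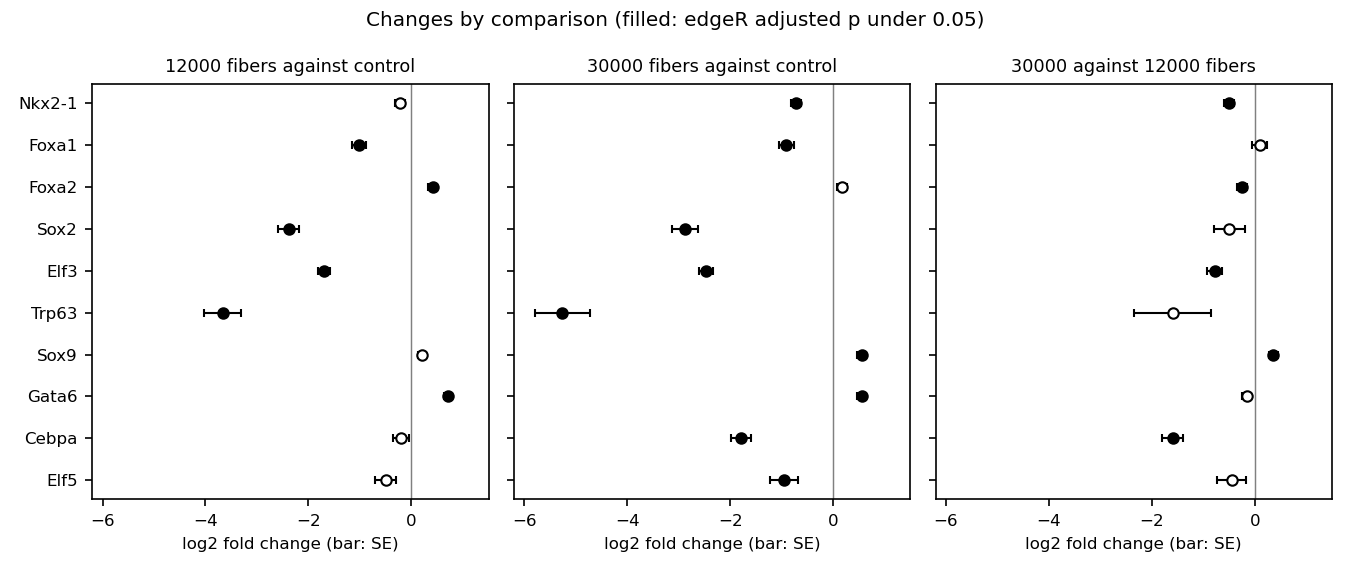
Log2 fold change with SE of each factor in the 3 comparisons, filled where the edgeR adjusted p was under 0.05. Trp63 has the largest fall in both comparisons with control, -3.67 and -5.26, and under pan-epithelial scaling Nkx2-1, Foxa2, Sox2, Gata6 and Elf5 change direction in the third panel, as do Foxa1 there and Foxa2 in the second under library totals.

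Ratios of 2 factors within a library do not depend on library scaling. They were tested with an exact permutation test (two-sided, 4 against 4, smallest possible p 0.0286) in 7 pairs and 3 comparisons, 21 tests in all. The test took all libraries as independent, although the same 4 mice gave every group. The log2 ratio of Sox2 to Sox9, airway against distal, was 0.22 ± 0.38 (SD, n = 4) in controls, -2.37 ± 0.32 at 12000 fibers and -3.24 ± 0.38 at 30000 fibers. All 3 groups were apart in it, and each comparison gave exact p = 0.0286, adjusted 0.0375. Trp63 to Nkx2-1, basal against pan-lung, went from -0.77 ± 0.47 to -4.28 ± 0.94 and -5.63 ± 1.56, and the doses did not differ beyond their spread (exact p = 0.2286). The wide spread at 30000 fibers came with the single Trp63 read in mouse 1, and without that library the difference between doses was -0.58 in place of -1.345.

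Among the other pairs, only Cebpa to Nkx2-1 and Gata6 to Nkx2-1 differed between the doses by this test. Foxa1 to Foxa2 went from 1.61 ± 0.34 in controls to 0.19 ± 0.17 at 12000 fibers and 0.52 ± 0.17 at 30000 fibers, and the doses gave exact p = 0.0571. Elf3 to Elf5 was at 5.14 ± 0.51, 3.94 ± 0.25 and 3.53 ± 0.43, and the doses did not differ beyond their spread (exact p = 0.1714). Gata6 to Nkx2-1 rose at each step, from -2.0 ± 0.1 to -1.06 ± 0.08 and -0.71 ± 0.21, with exact p = 0.0286 in each comparison, but over summed transcripts it differed by 0.002 between the doses. Cebpa to Nkx2-1 was at -1.18 ± 0.28 in controls and -1.16 ± 0.17 at 12000 fibers (exact p = 0.9714) but at -2.22 ± 0.27 at 30000 fibers (exact p = 0.0286 against both). Sox2 to Nkx2-1 was at -1.44 ± 0.32 in controls and -3.61 at both doses, whose difference of -0.005 (exact p = 0.9714) ran from -0.23 to 0.18 when each library was left out.

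**Figure D3:**
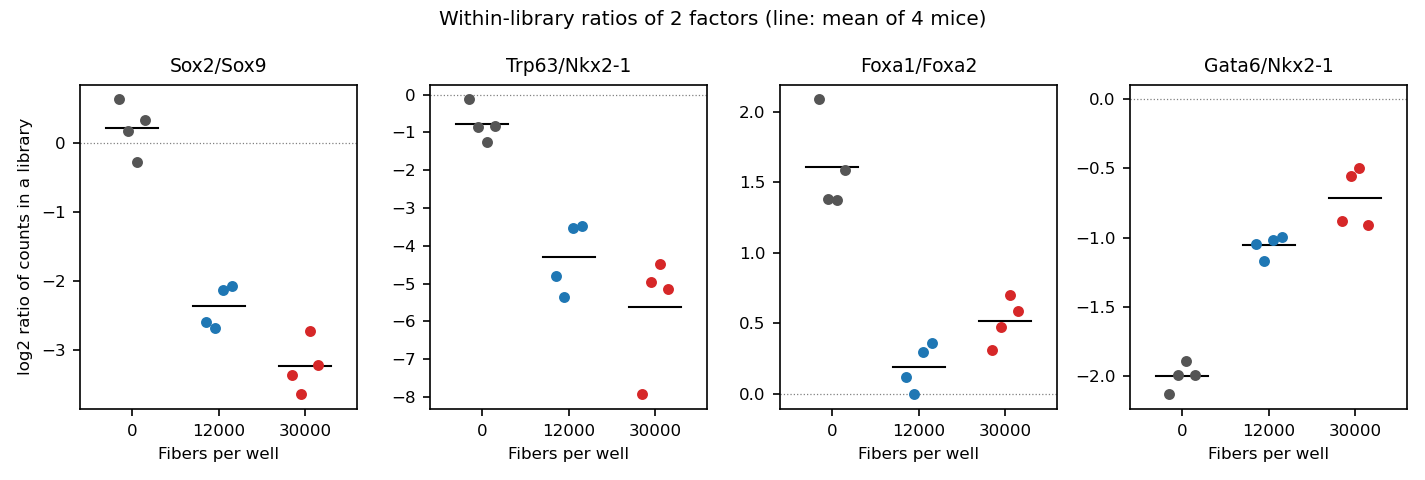
Log2 ratio of 2 factors in each library for 4 of the 7 pairs, with 1 point per mouse and the mean as a line. Sox2 to Sox9 falls from 0.22 in controls to -3.24 at 30000 fibers, and Gata6 to Nkx2-1 rises from -2.0 to -0.71.

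The order of the factors also changed. Levels per kilobase of the chosen transcript set different genes side by side only if coverage along the transcripts is even. On that scale Elf3 was first in controls at 89.0 ± 15.3 CPM per kilobase (SD, n = 4), followed by Nkx2-1 at 73.1 ± 6.72 and Foxa1 at 55.3 ± 9.82. The ranges of Elf3 (70.4 to 105.6) and Nkx2-1 (66.1 to 79.8) overlapped, and Sox2 (28.9 to 46.2), Cebpa (28.4 to 42.2), Foxa2 (24.2 to 29.8) and Trp63 (17.0 to 36.3) overlapped one another. Elf5 was last in controls at 2.37 ± 0.505. At 30000 fibers the order began with Nkx2-1 (44.3), Foxa2 (30.3) and Foxa1 (29.2) and ended with Sox2 (4.97), Elf5 (1.24) and Trp63 (0.651). In rank of the means, Trp63 went from 7 to 10, Elf3 from 1 to 6 and Gata6 from 8 to 4. At 30000 fibers Foxa2 (23.87 to 34.22), Foxa1 (22.11 to 34.34) and Gata6 (22.03 to 25.03) overlapped one another and Sox9. Ranks 2 to 5 at that dose are therefore not resolved. Elf5 and Trp63 overlapped there too, as did Gata6 and Sox9 in controls. The 3′ index given above was high at 30000 fibers, and its part in this order was not tested.

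The choice of transcript turned the direction at 30000 fibers for Gata6 and Foxa2 and moved the size of the change for Elf5. At 12000 fibers all 6 transcripts of Gata6 were higher, by 0.69 to 0.87 on the log2 scale. At 30000 fibers, in a fit over all 67490 transcripts, Gata6-201, which reaches the 3′ end of the gene, was higher by 0.55 and Gata6-205, which ends 22174 bases before it, by 1.34, but the 4 that end 26285 to 31374 bases before it were lower, Gata6-206 by -2.86 ± 0.33. Foxa2 was similar: its 2 transcripts that reach the 3′ end were at 0.17, and Foxa2-204 and Foxa2-203, which end 665 and 1363 bases before it, were at -0.62 and -1.19. Elf5-201, the transcript read, was at -0.95 at 30000 fibers, while Elf5-203, 204, 205 and 207, which end 1148 to 5701 bases before the 3′ end, were at -1.68 to -2.55. Between the doses Elf5-201 did not pass in this fit (adjusted p = 0.176), and 5 of the other 6 Elf5 transcripts were lower (adjusted p from 0.00157 to 0.0457). The 3′ index given above was high in the same libraries, and its part in these differences was not tested. All 8 transcripts of Trp63 fell at both doses, with log2 changes of -3.52 to -3.69 with 12000 fibers and -5.11 to -5.61 with 30000. The counts of forms with the upstream and with the internal start of Trp63 were nearly equal, so the long and the short p63 cannot be told apart here. Elf3, with 3 transcripts, fell in all of them (-2.47 to -2.91 at 30000 fibers).

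**Figure D4:**
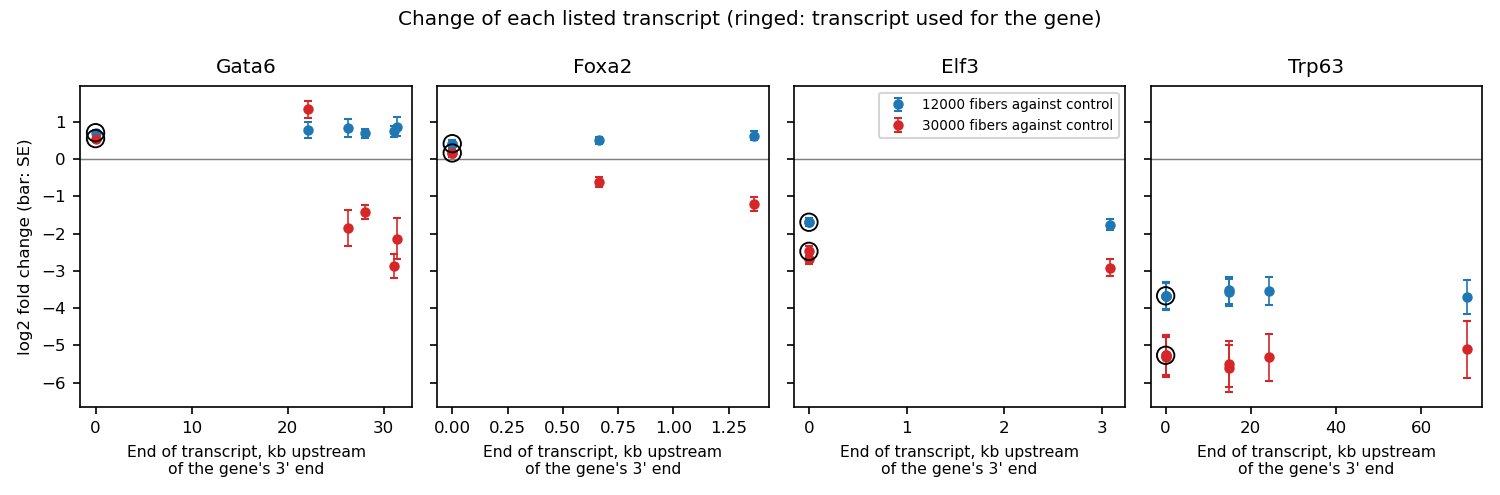
Log2 fold change (bars: SE) of every transcript of Gata6, Foxa2, Elf3 and Trp63 at 12000 and 30000 fibers against control, by the distance of its end from the gene's 3′ end in kilobases, with rings around the transcripts used. At 30000 fibers the Gata6 transcripts that end 26285 bases or more before the 3′ end are below 0, whereas Gata6-201 is at 0.55.

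Other regulators of the same lineages gave a wider view. Counts in their lists, and in the marker lists below, are to be read against the shares of all genes given above. Of the 8 basal and squamous regulators tested, all 8 were lower at 12000 fibers (median -2.11), among them Bcl11b, a zinc finger factor (-3.04 ± 0.28, adjusted p = 1.42e-07), and Snai2, a zinc finger repressor also active in mesenchyme (-1.40 ± 0.14, adjusted p = 2.75e-07). At 30000 fibers 5 were lower and 1, Snai2, was higher (0.96, adjusted p = 1.97e-06; 3 were higher with pan-epithelial scaling), so that Snai2 differed between doses by 2.36 ± 0.15 (adjusted p = 4.24e-11). Sox15 and Sox21, relatives of Sox2, were at -3.12 and -2.81 on the log2 scale with 12000 fibers, both past the test. Other Sox genes did not all follow at that dose. Sox5, Sox6, Sox11 and Sox13 were lower, Sox12 did not pass (-0.04, adjusted p = 0.737) and Sox4 was higher (0.27, adjusted p = 0.00716). Of 6 ciliated cell regulators, 4 were lower and none higher at 12000 fibers, and 4 were lower and 1 higher at 30000 fibers (3 and 2 with pan-epithelial scaling). The higher one was E2f4 (0.62 ± 0.07, adjusted p = 4.59e-07), an E2F factor that also works in the cell cycle. Foxj1, the master factor of motile cilia, was among the lower ones and was at 60.6 ± 12.5 CPM in controls, 25.4 ± 3.09 at 12000 fibers and 14.6 ± 2.76 at 30000 fibers.

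Among pan-epithelial regulators, 8 of 10 were lower at 12000 fibers and 10 of 10 at 30000 fibers, none higher, but with pan-epithelial scaling 6 and 3 were lower and 1 and 1 higher. Grhl2, which holds epithelial junction genes on, changed by -0.69 ± 0.08 and -1.78 ± 0.10 (adjusted p = 1.75e-06 and 5.16e-12), and Ehf, an ETS relative of Elf3, by -0.95 ± 0.14 and -1.90 ± 0.15. The 12 alveolar regulators had no single direction. At 12000 fibers 2 were higher and 5 lower, and at 30000 fibers 3 and 4, which became 9 and 0 with pan-epithelial scaling and 1 and 6 with library totals as the only scaling. Id2, a helix-loop-helix inhibitor of the distal tips, was lower at 12000 fibers (-0.86 ± 0.09) and higher at 30000 fibers (0.24, adjusted p = 0.0365). Other factors of the same families (22 tested) were higher in 5 and lower in 11 at 12000 fibers and higher in 6 and lower in 13 at 30000 fibers, or 11 and 6 with pan-epithelial scaling. Secretory and goblet cell regulators were mixed, with 2 of 7 higher and 2 lower at 12000 fibers and 3 higher and 1 lower at 30000 fibers (6 and 0 with pan-epithelial scaling), Creb3l1 being higher at both (0.73 and 1.26). Among the rare cell regulators, Prox1 was the single one tested and did not pass in any comparison.

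**Figure D5:**
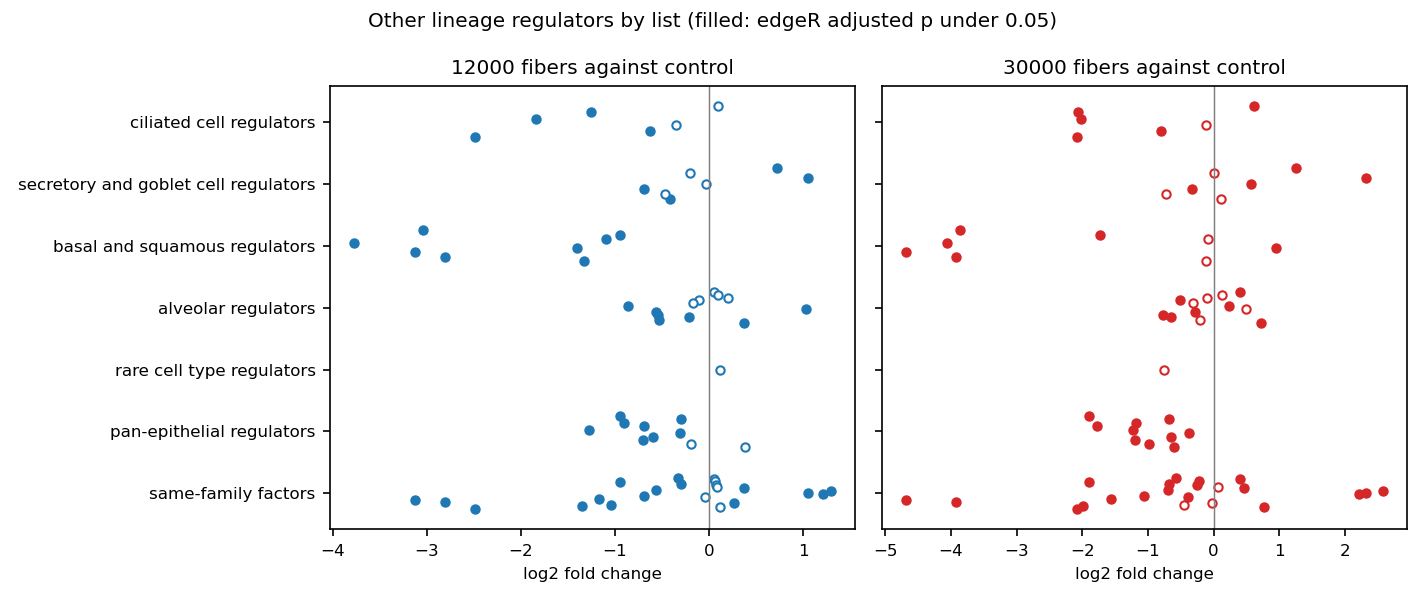
Log2 fold changes of the other regulators of each list at 12000 and 30000 fibers against control, 1 point per gene, filled where the edgeR adjusted p was under 0.05. The 8 basal and squamous regulators are all below 0 at 12000 fibers, and the alveolar regulators lie on both sides of 0.

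The marker genes of the cells these factors specify were set beside them. Club and secretory markers were lower in 13 of 15 at 12000 fibers and 14 of 15 at 30000 fibers, and the list summed to 2909 to 5289 CPM without fibers, to 835.3 to 977.7 CPM with 12000 and to 815.2 to 1143 CPM with 30000. Scgb1a1, the club cell secretoglobin, went the other way, from 11.5 ± 5.10 CPM in controls to 209.9 ± 25.02 CPM at 30000 fibers (4.15 ± 0.30, adjusted p = 7.75e-07). Ciliated markers were lower in 12 of 12 and 9 of 12 (11 and 5 with pan-epithelial scaling). Alveolar type 1 markers were lower in 5 and 7 of 13 and higher in 1 and 0 (lower in 4 and 2 and higher in 3 and 6 with pan-epithelial scaling), with Aqp5, the water channel, at -1.30 and -1.73.

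Genes whose profile over the 12 libraries lay closest to 4 of the factors were named by the root mean square difference of centred log2 CPM, among 12648 genes of at least 1 CPM. For Trp63 they were Sidt1 (0.62), Dsg3 (0.64), a desmoglein of stratified epithelium, and Alox12 (0.67). For Sox2 they were Kctd12 (0.23), Iqgap2 (0.24) and Otx1 (0.25). Nkx2-1 was closest to Epb41l4b (0.08), Atp1b1 (0.09), a subunit of the sodium pump, and Fam174b (0.10), and Sox9 to Spred3 (0.06), Pabpc1 (0.07) and Sec31a (0.07).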

How the data were processed

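RNA of the epithelial fraction was sequenced in 12 libraries (24 in the series, with the fibroblast fraction). The deposited values were raw counts per Ensembl transcript, which the authors had not normalized or pooled. Per the submitters' processing notes, bcl2fastq, FastQC, cutadapt 1.12 and HISAT2 2.1.0 were used with build mm10. For the counting program, annotation, strand setting and barcodes, nothing is given in the sources used here. Isoforms share exons and their counts were often nearly equal, so each gene was read from its transcript with the highest mean count. Coordinates came from GENCODE M21 (mm10), and promoters from RefSeq. The fibroblast columns held 107814 entries against 71081 transcript names and did not follow those names (Spearman rho with the epithelial columns 0.0467), so no gene was read from them.

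Groups and mice came from the sample titles. All 12 libraries entered a single fit in edgeR 4.0.16 (R 4.3.3; filterByExpr, TMM, robust quasi-likelihood F test, 9 residual degrees of freedom), with Benjamini-Hochberg adjustment over 13759 genes. CPM used TMM-scaled totals of the chosen transcripts. Ratios used counts + 0.5 and exact permutation tests (scipy 1.17.1). Scripts were tested on simulated data. Same-numbered libraries came from the same mouse, and their deviations from the group means had a Pearson r of -0.021 to 0.139 over 12 pairs. The members, lists and tests were chosen with earlier results of these data known. Named were all members, the 2 genes of smallest p of a list in a comparison, and the 3 genes closest to 4 members, and further list members named were chosen after their values were seen. Alternatives were DESeq2 1.42.0, other scalings, no filter, mouse as a block and only the 2 groups compared. Further ones were the next-highest or summed transcripts, a fibroblast covariate, another pseudocount and each library left out. The next-highest transcript was taken for every gene that had another transcript, and the libraries were rescaled on those counts. The other single transcripts, at the scaling of the main fit, were added after seeing the data.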

Additional observations from a re-analysis of the deposited data

Results flagged for a closer look

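Sox2 at 30000 fibers had 1 library far from the others of its group: mouse 3 was at 14.72 CPM and the nearest of the other 3 at 9.02 CPM, a gap of 0.863 of the group's range, above the critical value of Dixon's test. Of 30 groups of 4 libraries tested this way, 1 stood out, and chance gives about 1 in 20. The level of mouse 3 was still below every control library.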

How the results depend on the processing

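The 12000-fiber calls of Foxa1, Sox2, Elf3, Trp63 and Gata6 held under every alternative run. The number of factors that passed was 6 to 8 at 12000 fibers, 9 to 10 at 30000 fibers and 4 to 5 between the doses when each library was left out in turn. It was 5 at 30000 fibers with the fibroblast covariate, which also took the number of all genes passing from 9026 to 3201, and 8 between the doses over summed transcripts. Over summed transcripts, the difference between doses was 0.51 for the log2 ratio of Foxa1 to Foxa2, 0.022 for Elf3 to Elf5 (-0.772 with a pseudocount of 5) and 0.002 for Gata6 to Nkx2-1, and Gata6 to Nkx2-1 changed by 0.956 at 30000 fibers. Directions turned as follows. Sox9 at 12000 fibers was -0.015 with the fibroblast covariate. Foxa2 at 30000 fibers was -0.053 with library totals and -0.619 and -1.19 in its transcripts 204 and 203. Gata6 at 30000 fibers was -1.266 when every gene was read from its next-highest transcript. At the scaling of the main fit it was -1.424, -2.863, -2.134 and -1.857 in transcripts 202, 206, 203 and 204. Between the doses, pan-epithelial scaling gave Nkx2-1 0.08, Foxa2 0.329 (adjusted p = 0.00539), Sox2 0.069, Gata6 0.422 (adjusted p = 0.00113) and Elf5 0.129, library totals gave Foxa1 -0.109, and Gata6-205 was at 0.558. The causes of these changes were not tested. With the replicate block (mouse), Sox9 at 12000 fibers passed (0.198, adjusted p = 0.0348) and Foxa2 between the doses did not (-0.247, adjusted p = 0.05), and the block changed no other call of a member. Depth limits Trp63 and Elf5 at 30000 fibers, where a library held 1 to 17 and 7 to 9 reads.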
